A study of Mus musculus with 31 samples.

Results

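Macrophages that lack MyD88 still answered LPS within 2 hours, and the 7 arrays that measured this answer are described here. They are 7 of the 31 arrays of the series, chosen by their titles, which name MyD88-/- macrophages and LPS against mock. Each array holds, in the 2 dyes, RNA of LPS-treated macrophages and RNA of macrophages given medium alone. The 7 arrays come from 4 mice. Mice 1, 2 and 3 each have an unswapped and a dye-swapped array, and mouse 4 has an unswapped array alone. The other groups used here are wild-type macrophages given LPS (8 arrays, 4 mice), MyD88-/- macrophages given live E. coli (8 arrays, 4 mice) and wild-type macrophages given live E. coli (8 arrays, 4 mice). Bone marrow came from mice 6 to 8 weeks old, C57BL/6J wild-type or deficient in MyD88, and was grown for 8 days in 10% serum and 15% L929-conditioned medium, a source of CSF-1. LPS was re-purified from E. coli O111 and used at 10 ng/mL, and bacteria were added at 1 per macrophage. The labels use the same mouse numbers for the LPS and E. coli arrays of a genotype, and do not say whether these were the same animals or whether the wild-type mice were littermates. A value is the authors' log2 ratio, read here as LPS over mock. That direction is likely from the titles but is not stated in the labels.

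LPS, the outer-membrane lipid of Gram-negative bacteria, is sensed at the surface of macrophages by TLR4 with its co-receptor MD-2. TLR4 signals through the adaptors TIRAP and MyD88, which lead quickly to NF-kB and MAP kinases. From endosomes it signals through TRAM and TRIF, which lead to IRF3, interferon beta and a later wave of NF-kB. Macrophages without MyD88 keep the TRIF arm. Known outputs of that arm are interferon-stimulated genes such as Ifit1 and Cxcl10, while cytokines such as IL-6 and TNF draw strongly on MyD88.

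Promoter stretches of 5 genes that rose in the MyD88-/- cells are shown because they carry the sequence motifs read by the factors at the end of these routes. They are from RefSeq (GRCm38.p6), 5′ to 3′ on the strand of the gene, from the bases before the first listed start. Capitals mark matches to the core of the interferon-stimulated response element, GAAANNGAAA, or to the kB core, GGGNNNNNCC, on either strand. Overlapping matches run together. The first 2 genes belong to the antiviral list, the third encodes an interferon regulatory factor, and the others restrain NF-kB.
Ifit1, chr19:34640714-34640828, plus strand: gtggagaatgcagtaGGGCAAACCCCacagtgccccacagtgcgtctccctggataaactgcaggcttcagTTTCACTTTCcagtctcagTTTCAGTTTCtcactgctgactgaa
Rsad2, chr12:26456503-26456587, minus strand: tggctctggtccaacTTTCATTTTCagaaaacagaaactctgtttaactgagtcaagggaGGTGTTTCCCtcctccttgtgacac
Irf1, chr11:53769803-53770013, plus strand: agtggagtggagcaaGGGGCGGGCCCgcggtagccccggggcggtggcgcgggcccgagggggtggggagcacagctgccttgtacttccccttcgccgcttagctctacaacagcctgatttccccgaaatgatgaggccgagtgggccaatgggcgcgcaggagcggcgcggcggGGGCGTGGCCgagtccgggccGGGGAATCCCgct
Tnfaip3, chr10:19015411-19015551, minus strand: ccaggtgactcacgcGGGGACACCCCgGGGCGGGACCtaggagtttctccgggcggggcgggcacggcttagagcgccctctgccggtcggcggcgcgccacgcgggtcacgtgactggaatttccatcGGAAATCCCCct
Nfkbie, chr17:45555579-45555638, plus strand: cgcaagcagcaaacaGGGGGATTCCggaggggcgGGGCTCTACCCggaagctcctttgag

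The Ifit1 stretch lies 175 to 61 bases before its start and holds 2 matches to the response element core. Rsad2 has 1 such match, in a stretch 135 to 51 bases before its start. Over all 27025 promoters of the table, cut to the 250 bases before the start, 821 (3.04%) held the response element core and 12261 (45.4%) held the kB core. Of the 13 antiviral genes that rose, 9 had a promoter in the table, and 3 of these held the response element core. Among 14 risen NF-kB genes, 13 had a promoter, of which 10 held the kB core and 0 the response element core. The kB core is loose and common, so its matches are described only as letters. None of them was tested for binding here.

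Each of the 7 arrays gave 6943 to 10091 values for the 13872 probes, after 900 values (1.41%) at a floor of log2(0.01) were set to missing. Array medians lay between -0.0425 and 0.0. The dye orientations of a mouse correlated across probes with r of 0.319, 0.31 and 0.388 in mice 1, 2 and 3, over 6816, 8055 and 7929 probes, which share slides of 1 design. Mouse 4, measured on 1 array, stood apart: 403 probes (6.37%) lay more than 1.5 from the median of the other mice, against 142 to 202 probes (2.24% to 3.19%) in mice 1 to 3. Mice 1 to 3 were averaged over up to 2 arrays, so the animal and the number of arrays cannot be told apart in this distance. Values without mouse 4 are therefore given beside several results. Macrophage markers fitted the label: 12 of 16 (75.0%) had values on all 7 arrays, against 4999 of all 13872 probes, 2 of 11 T cell markers, 4 of 11 B cell markers, 2 of 12 neutrophil markers, 1 of 6 dendritic cell markers, 1 of 7 erythroid markers, 2 of 10 stromal markers and 0 of 8 mast cell or basophil markers. Of the 11 T cell markers 9 had a value on at least 1 array, and Cd3e and Cd8a had none.

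LPS changed 646 of the 9211 probes tested (7.01%) in the MyD88-/- macrophages, at an adjusted p under 0.05 in limma. Of these, 361 (3.92%) were higher and 285 (3.09%) lower. Rises were larger than falls: 97 of the higher probes passed 4-fold and 35 passed 8-fold, against 13 and 2 of the lower. Nearly all called probes moved 1 way in every mouse measured (644 of 646), and 482 of the 530 with values on all 7 arrays had 1 sign on all of them. The probes were called from the mean of these same mice, so the selection favours 1 sign and these counts add no separate support. Without mouse 4 the number of calls was 428, of which 418 were among the 646, and 333 calls (212 higher, 121 lower) stood whichever of the 4 mice was left out. The spread was taken from the mice of all 4 groups. From these 4 mice alone 255 probes were called, 245 of them shared. In bulk RNA, fewer cells of a type and less RNA per cell cannot be told apart.

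**Figure D1:**
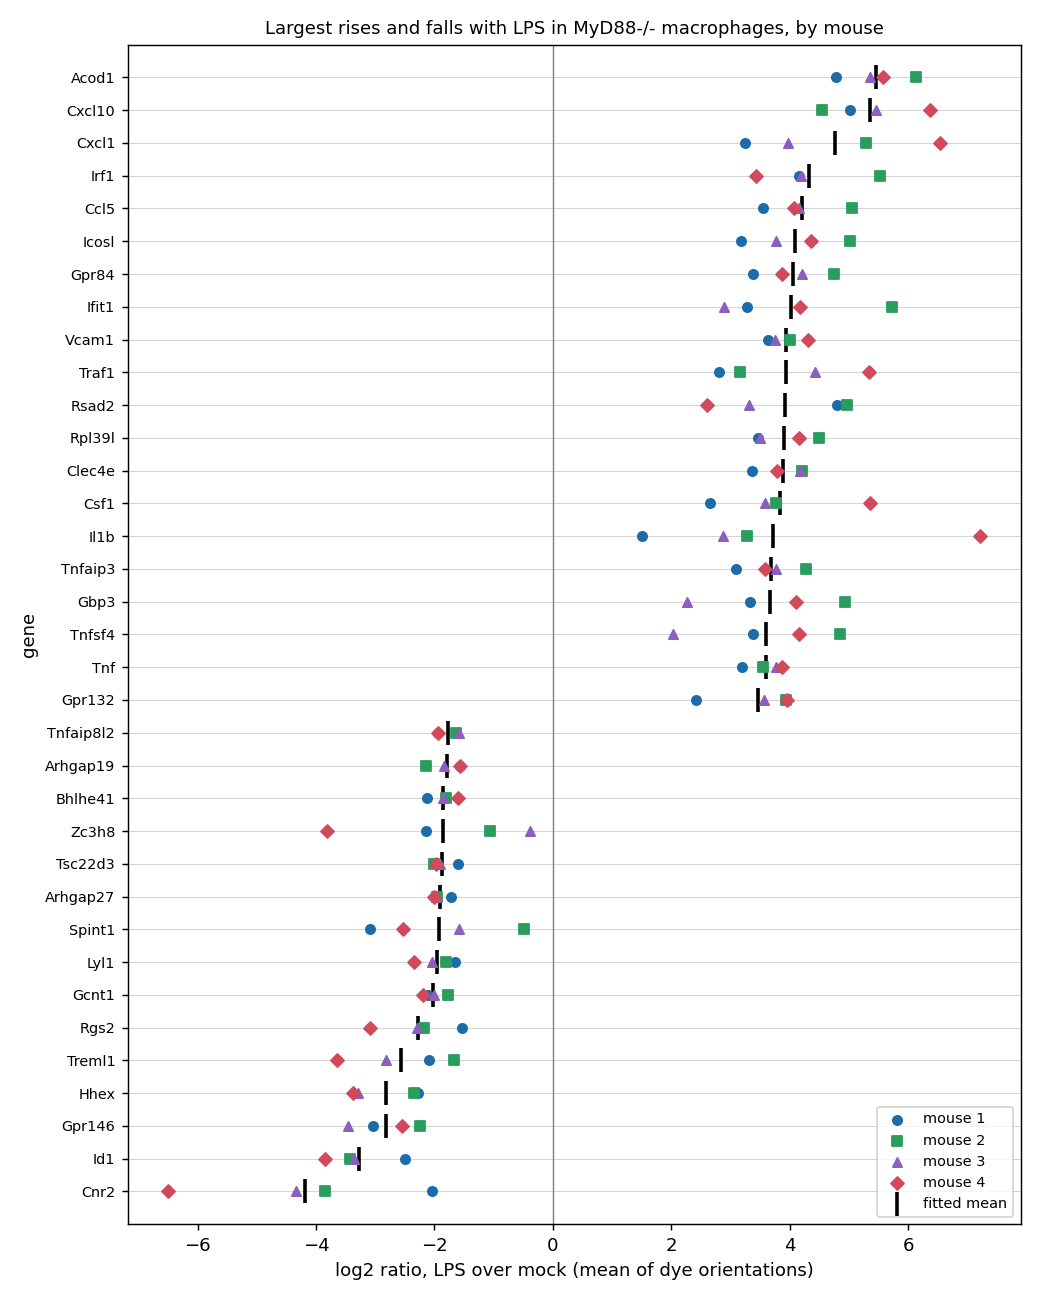
Log2 ratios, LPS over mock, of the 20 probes that rose most and the 15 that fell most, each called and of 1 sign in all 4 mice; each coloured symbol is 1 mouse and the black bar the fitted mean. Acod1 leads the rises at 5.46 and Cnr2 the falls at -4.18, and mouse 4 lies far from the other mice for Il1b, Cxcl1, Cnr2 and Zc3h8.

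Acod1, which makes the antimicrobial metabolite itaconate, was the largest rise. Its log2 ratios were 4.78, 6.13, 5.35 and 5.58 in mice 1 to 4, a mean of 5.46 ± 0.20 (SE, n = 4 mice, adjusted p = 6.75e-10), or 44.0-fold. Every mouse was thus far above 0, and wild-type cells gave 4.38 to 5.18, a range the MyD88-/- mice overlapped. Cxcl10, an interferon-linked chemokine that draws T cells, followed with 5.01, 4.55, 5.46 and 6.37, a mean of 5.35 ± 0.28 (adjusted p = 3.29e-08). The largest fall after that of Cnr2, described further on, was that of Id1, an inhibitor of helix-loop-helix factors and a target of BMP signalling. It gave -2.50, -3.42, -3.35 and -3.84, a mean of -3.28 ± 0.23 (adjusted p = 3.23e-07), and these values lay below all wild-type values, which ran from -2.38 to -1.32. That gap between genotypes did not pass its own test (difference -1.43, adjusted p = 0.0977).

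The targeted gene was measured on all 7 arrays. Myd88 gave log2 ratios of 1.09, 1.99, 0.87 and 4.70, a mean of 2.16 ± 0.43 (adjusted p = 0.00509), against 1.14 to 1.75 in wild-type cells. Mouse 4 stood well above the others, and without it the mean was 1.32 (adjusted p = 0.00289). The rise was not called from the 4 mice alone (adjusted p = 0.213). A ratio of LPS to mock within a genotype does not show the level of the transcript, and where the probe lies with respect to the deleted part is not given in the sources used here, so this probe does not check the genotype.

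Among genes of the TLR4 complex and its proximal signalling, Myd88 included, 4 of 22 were higher and 0 lower. Over all named genes 4.29% were higher and 3.25% lower, the baseline for the list counts that follow. From the 4 mice alone 2 of the 22 were higher. The list's median log2 ratio was 0.316, against -0.0403 over all named genes. Tlr2, the receptor for bacterial lipopeptides, rose by 2.62, 3.35, 3.04 and 3.30, a mean of 3.08 ± 0.18 (adjusted p = 1.02e-07). Its partner Tlr1 rose by 1.25, 1.74, 1.53 and 1.42, a mean of 1.49 ± 0.24 (adjusted p = 0.000787). Values of both genes were close together in the 4 mice and overlapped those of wild-type cells. The third was Myd88, above, and the fourth was Tab2, which links ubiquitin chains to the kinase TAK1, at 0.62 (adjusted p = 0.0175). Tab2 was not called without mouse 1, 3 or 4 (adjusted p = 0.0566, 0.103 and 0.0856). Tlr4 itself had values in 3 mice, 1.91, -1.56 and -1.81, which disagree in sign, and was not called (mean -0.48, adjusted p = 0.77).

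Interferon regulation was led by Irf1, an interferon regulatory factor that NF-kB induces. It rose by 4.16, 5.52, 4.19 and 3.43, a mean of 4.33 ± 0.33 (adjusted p = 7.58e-07), and overlapped the wild-type range of 3.30 to 4.06. Jak2, a kinase of cytokine receptors, rose by 2.17, 2.76, 2.63 and 3.55 (mean 2.78 ± 0.22, adjusted p = 1.3e-06). In the other direction Irf8, a lineage factor of myeloid cells, fell in a narrow band of -1.38, -1.29, -1.70 and -1.68 (mean -1.51 ± 0.21, adjusted p = 0.000229). Of the 18 genes of type I interferon, its receptor and the IRF factors, 3 were higher and 1 lower, with a median of 0.456. The remaining call, Ifngr1, the binding chain of the interferon gamma receptor, was 1.00 (adjusted p = 0.0152) and was lost without mouse 1, 2 or 4 (adjusted p = 0.0595, 0.0581 and 0.1). Ifnb1, the interferon beta gene, gave 0.05, -0.16, 1.49 and -0.11, so that mouse 3 alone was clearly above 0, and its mean of 0.32 was not called (adjusted p = 0.622). Irf7 gave 1.52, 1.20, 0.30 and 0.36, a mean of 0.84 (adjusted p = 0.0679).

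Of 35 antiviral interferon-stimulated genes tested 13 were higher, 0 lower and 22 not called, with a median of 0.601. Ifit1, which binds viral RNA and whose promoter is shown above, gave 3.28, 5.73, 2.89 and 4.17, a mean of 4.02 ± 0.60 (adjusted p = 0.000513). All 4 mice exceeded the wild-type range of 0.21 to 2.85, yet the difference of 2.14 did not pass the test (adjusted p = 0.509). Rsad2, which encodes viperin, gave 4.80, 4.96, 3.31 and 2.61, a mean of 3.92 ± 0.49 (adjusted p = 8.8e-05). Its wild-type values ran from 0.71 to 2.82 and reached into the MyD88-/- range. Cmpk2, the neighbour of Rsad2 and a nucleotide kinase, gave 3.27, 3.54, 2.42 and 2.76, a mean of 3.00 ± 0.35 (adjusted p = 4.66e-05), without overlap with the wild-type range of 0.12 to 1.55. Its genotype difference, 1.92, also missed the threshold (adjusted p = 0.199). Parp14, an ADP-ribosyltransferase, rose by 0.92, 3.26, 2.89 and 2.81, with mouse 1 lowest (mean 2.47 ± 0.38, adjusted p = 0.000673), and was not called from the 4 mice alone (adjusted p = 0.0572) or with the values at the floor kept (adjusted p = 0.0673). Of the 35 genes 7 were higher without mouse 2, 9 without mouse 4, 10 without mouse 1 or 3 and 5 from the 4 mice alone.

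Of the interferon-inducible GTPases, which attack the vacuoles of intracellular pathogens, 7 of 8 were higher and 0 lower, with a median of 1.68. Gbp3 gave 3.33, 4.94, 2.26 and 4.11, a mean of 3.66 ± 0.37 (adjusted p = 1.52e-05), and all 4 values lay above the wild-type range of 1.52 to 2.24. The genotype difference of Gbp3 was not called. Gbp2 gave 2.58, 2.43, 2.99 and 3.57 (mean 2.89 ± 0.39, adjusted p = 0.000205), within the range of wild-type cells. For Tgtp1 the mice fell into a high pair, 4.00 and 3.79 in mice 2 and 4, and a low pair, 1.99 and 1.79 (mean 2.89 ± 0.47, adjusted p = 0.000925), all above the wild-type range of 0.56 to 1.56. Its genotype difference was not called either (1.89, adjusted p = 0.42). Irgm2 rose by 1.62 ± 0.27 (adjusted p = 0.00138). The GTPase not called, Iigp1, gave 0.28, 3.39, -0.41 and 1.38. Gbp2b, which had values in too few wild-type mice to be compared, was 4.52, 3.65 and 2.59 in the 3 mice measured (mean 3.59, adjusted p = 0.00744), and its call was lost without mouse 1 (adjusted p = 0.0586) and with the values at the floor kept (adjusted p = 0.118). Without mouse 2 the list's count of higher genes was 5, and from the 4 mice alone it was 4.

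Of 20 subunits, inhibitors and feedback genes of NF-kB tested, 14 were higher and 0 lower, with a median of 1.78. The number of higher genes was 14 whichever of the 4 mice was left out and 12 from the 4 mice alone. Relb, a subunit of the alternative NF-kB dimer, gave 2.27, 3.55, 2.81 and 4.83 (mean 3.36 ± 0.32, adjusted p = 7.14e-06). Its partner Nfkb2 gave 1.83, 3.08, 2.59 and 2.45 (mean 2.49 ± 0.23, adjusted p = 6.32e-06). The rise of Nfkb2 in wild-type cells was 2.42 to 2.50, inside the range of the MyD88-/- mice. Among the restraining genes, Tnfaip3, which encodes the ubiquitin-editing enzyme A20, gave 3.10, 4.28, 3.76 and 3.58 (mean 3.68 ± 0.49, adjusted p = 0.000178). Tnip1, a partner of A20, gave 1.55, 3.02, 2.42 and 2.23 (mean 2.31 ± 0.20, adjusted p = 2.47e-06). Traf1, an adaptor of TNF receptors, gave 2.80, 3.16, 4.43 and 5.33 (mean 3.93 ± 0.52, adjusted p = 0.00016), the largest error of the 6 members given here. Tnfaip2 gave 2.31, 3.08, 2.46 and 2.58 (mean 2.61 ± 0.21, adjusted p = 1.44e-06). No genotype difference of these 6 genes was called: they ran from -0.59 for Tnfaip3 to 1.05 for Relb, with adjusted p of 0.533 or more. Nfkbia, the inhibitor most often used to follow NF-kB, had a value on 1 of the 7 arrays and was not tested.

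**Figure D2:**
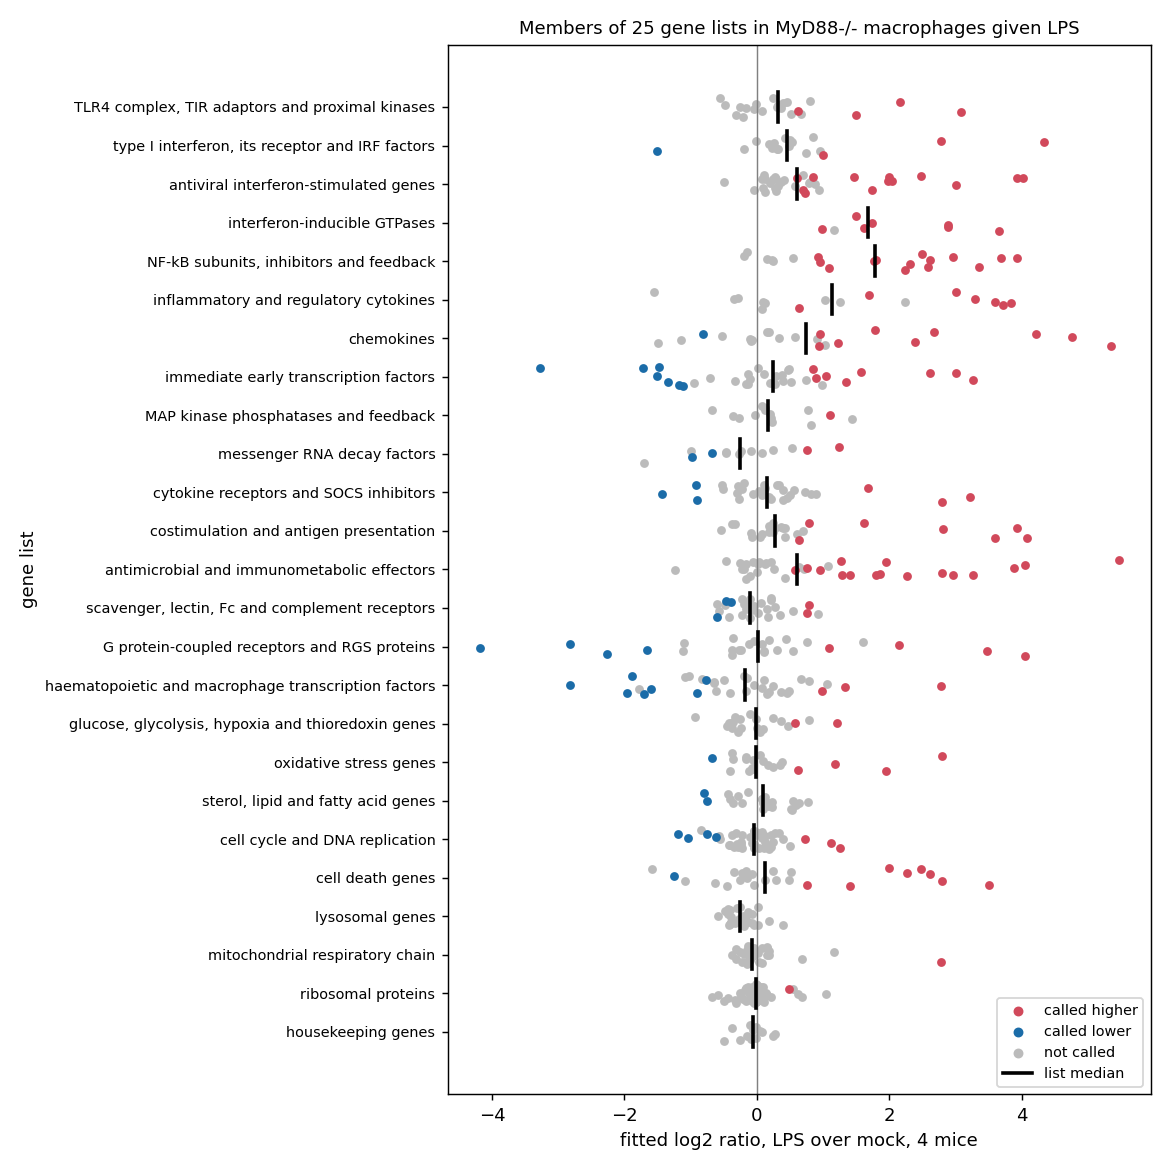
Fitted log2 ratios, LPS over mock, of the tested members of 25 gene lists (rows), each point 1 gene, red where called higher, blue where called lower and grey where not called; vertical bars are list medians and the vertical scatter within a row carries no value. The NF-kB list (median 1.78) and the interferon-inducible GTPases (median 1.68) lie farthest to the right, while the medians of ribosomal, mitochondrial and housekeeping genes lie between -0.0767 and -0.0195 and that of lysosomal genes at -0.258.

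Cytokine genes rose in 7 of 16 tested members and fell in 0, with a median of 1.14, or 0.616 without mouse 1. Tnf gave 3.20, 3.54, 3.76 and 3.87, a mean of 3.59 ± 0.22 (adjusted p = 1.15e-07), or 12.1-fold. No MyD88-/- mouse reached the wild-type range of 4.56 to 5.84, and the difference of -1.52 lay just outside the threshold (adjusted p = 0.0657). Csf1, the macrophage growth factor, gave 2.66, 3.77, 3.58 and 5.35 (mean 3.84 ± 0.37, adjusted p = 8.35e-06) and 3.34 without mouse 4. Il1a gave 1.97, 3.94, 2.99 and 4.29 (mean 3.30 ± 0.43, adjusted p = 0.000148), all below the wild-type range of 4.59 to 6.33. That difference, -2.21, was not called (adjusted p = 0.242). Il15, a growth factor of natural killer cells, gave 2.87, 2.20, 2.27 and 4.68 (mean 3.01 ± 0.32, adjusted p = 1.99e-05) and 2.45 without mouse 4.

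Il1b, the gene of interleukin 1 beta, had the widest range among the rises named here. Its values were 1.5, 3.27, 2.88 and 7.21, a mean of 3.71 ± 0.66 (adjusted p = 0.00215). Only mouse 4 reached the wild-type range of 5.69 to 6.92, and without it the mean was 2.55 (adjusted p = 0.00448). From the 4 mice alone the rise was not called (adjusted p = 0.149). Another Il1b probe gave -0.30 (adjusted p = 0.198), so the gene's value depends on the probe. Il1rn, the receptor antagonist, gave 1.99, 1.99, 1.92 and 0.87 (mean 1.69 ± 0.22, adjusted p = 0.000132), and here mouse 4 was the low one. Without it the mean was 1.97. Il10, the main anti-inflammatory cytokine of macrophages, had values in 3 mice, 0.70, 2.91 and 3.08, and its mean of 2.23 lay just outside the threshold (adjusted p = 0.0512), while wild-type cells averaged 4.52.

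**Figure D3:**
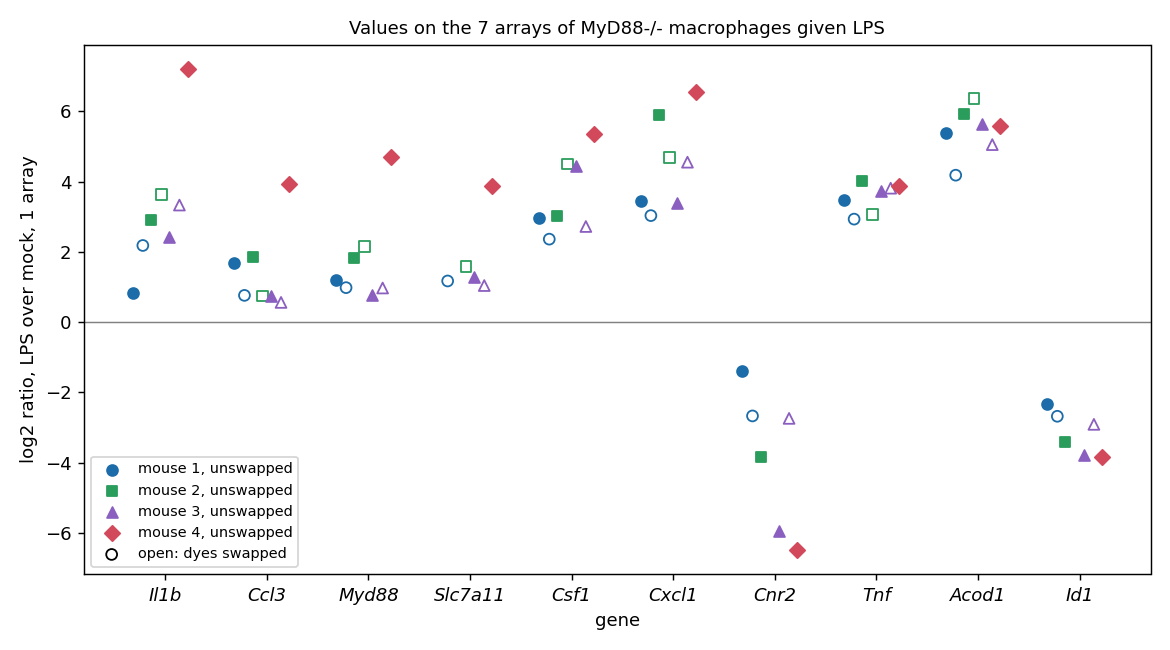
Log2 ratios on each of the 7 arrays for 10 genes, with symbol and colour giving the mouse and open symbols the dye-swapped arrays. The single array of mouse 4 is the highest of all for Il1b (7.21), Ccl3 (3.94), Myd88 (4.70) and Slc7a11 (3.88), while for Tnf, Acod1 and Id1 it lies with the other mice.

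Chemokine genes were higher in 9 of 22 tested and lower in 1, with a median of 0.743, or 0.445 without mouse 4. From the 4 mice alone 5 were higher. Cxcl1, a neutrophil attractant, gave 3.24, 5.29, 3.97 and 6.54 (mean 4.76 ± 0.45, adjusted p = 6.59e-06) and 4.17 without mouse 4. It overlapped the wild-type range of 5.32 to 6.60. Ccl5, a T cell attractant, gave 3.54, 5.05, 4.16 and 4.07 (mean 4.21 ± 0.23, adjusted p = 3.93e-08), against 3.60 to 4.55 in wild-type cells. Cxcl2, the close relative of Cxcl1, gave 1.56, 2.95, 3.03 and 1.96 (mean 2.38 ± 0.21, adjusted p = 4.36e-06), far below the wild-type range of 4.46 to 5.18. Ccl3 gave 1.22, 1.29, 0.65 and 3.94 (mean 1.78 ± 0.39, adjusted p = 0.0113). Without mouse 4 it was 1.05 (adjusted p = 0.0314), and from the 4 mice alone it was not called (adjusted p = 0.224). Ccl2, a monocyte attractant, gave 0.82, 0.56, 1.67 and 0.78 (mean 0.96 ± 0.25, adjusted p = 0.0325), a call lost without mouse 1, 3 or 4 (adjusted p = 0.0865, 0.19 and 0.0817). The lower member was Cxcl14, at -0.81 (adjusted p = 0.0275), not called without any 1 of the 4 mice (adjusted p = 0.0516 to 0.145). Ccl17, a type 2 attractant, gave -0.89, 0.40, 0.31 and -0.21, on either side of 0, where wild-type cells averaged 3.74.

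Immediate early transcription factors split into rises and falls, with 8 of 34 higher and 7 lower. Egr2, a zinc finger factor, gave 1.95, 3.80, 2.89 and 4.43 (mean 3.27 ± 0.40, adjusted p = 7.9e-05). Gadd45b, a stress-induced survival gene, gave 2.28, 3.47 and 3.25 in the 3 mice measured (mean 3.00 ± 0.30, adjusted p = 1.96e-05). Junb, an AP-1 subunit, rose evenly by 1.30, 1.20, 1.63 and 1.22 (mean 1.34 ± 0.13, adjusted p = 9.42e-06), below the wild-type range of 1.79 to 2.27. The genotype difference of Junb, -0.7, was not called (adjusted p = 0.205). Fos (mean -0.14, adjusted p = 0.877) and Egr1 (mean 0.39, adjusted p = 0.283) were not called at this time. On the falling side, Id2 gave -1.22, -1.74, -1.34 and -1.72 (mean -1.51 ± 0.15, adjusted p = 1.24e-05), under every wild-type value (-0.75 to -0.29), with a difference that missed the threshold (adjusted p = 0.102). Cebpd, a C/EBP factor of the acute phase, fell by -1.29, -0.99, -1.02 and -1.42 (mean -1.18 ± 0.18, adjusted p = 0.000591), whereas all wild-type values were above 0 (1.06 to 1.49). The numbers of higher members without mouse 2 and without mouse 3 were 5 each, and the falls counted 7 and 6.

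The calls among MAP kinase feedback genes and messenger RNA decay factors were each lost without at least 1 of the 4 mice. Of 14 MAP kinase phosphatases and feedback genes 1 was higher, the kinase gene Mapkapk2 at 1.10 (adjusted p = 0.016), a call lost without mouse 2, 3 or 4 (adjusted p = 0.0644, 0.0814 and 0.0522). Of 14 messenger RNA decay factors 2 were higher and 2 lower, and 0 were called without mouse 1. Zfp36, which encodes tristetraprolin, gave 0.76 (adjusted p = 0.0152), lost without mouse 1 or 2 (adjusted p = 0.105 and 0.0675). The deadenylase relative Noct was higher by 1.24 (adjusted p = 0.0121), lost without mouse 1 or 3 (adjusted p = 0.0614 and 0.094), while its other probe gave 1.81 (adjusted p = 2.65e-05). Tob1 (-0.98, adjusted p = 0.0162; 0.0964 without mouse 1 and 0.0638 without mouse 3) and Cnot8 (-0.68, adjusted p = 0.038; 0.0505 to 0.172 without any 1 mouse) were the lower members. Socs1 (0.72, adjusted p = 0.346) and Socs3 (0.56, adjusted p = 0.644), which block JAK kinases, were not called.

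Receptors for cytokines moved in either direction, with 3 of 30 higher and 3 lower. Ccrl2, an atypical chemokine receptor, gave 2.73, 3.49, 2.31 and 4.33 (mean 3.21 ± 0.36, adjusted p = 3.65e-05). Tnfrsf1b, the second TNF receptor, gave 1.18, 2.00, 1.5 and 2.02 (mean 1.68 ± 0.18, adjusted p = 2.65e-05). The third rise was Fas, a death receptor, at 2.80 (adjusted p = 0.0033), which was not called from the 4 mice alone (adjusted p = 0.0744). Il21r fell evenly, by -1.48, -1.29, -1.47 and -1.46 (mean -1.43 ± 0.17, adjusted p = 5.8e-05). Il6ra fell by -0.58, -1.43, -0.65 and -1.04 (mean -0.92 ± 0.14, adjusted p = 0.00053; 0.0995 from the 4 mice alone). Il4ra was -0.90 (adjusted p = 0.0188) and was lost without mouse 1, 3 or 4 (adjusted p = 0.077, 0.0511 and 0.117).

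Surface molecules that instruct T cells rose in 7 of 27 tested and fell in 0, with a median of 0.266. Icosl, the ligand of ICOS, gave 3.18, 5.02, 3.77 and 4.35 (mean 4.08 ± 0.27, adjusted p = 2.61e-07). Vcam1, an adhesion molecule, gave 3.64, 4.01, 3.75 and 4.31 (mean 3.93 ± 0.29, adjusted p = 7.22e-07). Tnfsf4, the OX40 ligand, was more variable at 3.38, 4.85, 2.02 and 4.16 (mean 3.60 ± 0.61, adjusted p = 0.00143). Cd83, a maturation marker, gave 3.06, 2.39, 3.01 and 2.77 (mean 2.81 ± 0.18, adjusted p = 1.89e-07). All 4 genes overlapped their wild-type ranges, and their genotype differences ran from -0.21 to 0.83 with adjusted p of 0.615 or more.

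Antimicrobial and immunometabolic effectors, the list that holds Acod1, were higher in 16 of 36 and lower in 0, with a median of 0.596. Clec4e, the glycolipid receptor Mincle, gave 3.36, 4.21, 4.18 and 3.78 (mean 3.88 ± 0.25, adjusted p = 1.53e-07). Saa3, an acute-phase protein, gave 2.68, 3.03, 3.24 and 2.90 (mean 2.96 ± 0.21, adjusted p = 3.64e-07). Every value of Saa3 lay below the wild-type range of 3.75 to 4.96, and the difference of -1.37 missed the threshold (adjusted p = 0.083). Another Saa3 probe, with values in 2 mice, gave -0.11. Sod2, the mitochondrial superoxide dismutase, gave 2.57, 2.92, 3.15 and 2.55 (mean 2.80 ± 0.17, adjusted p = 1.02e-07), level with wild-type cells at 2.31 to 3.12. Slc7a11, the cystine carrier, gave 1.17, 1.59, 1.15 and 3.88 (mean 1.95 ± 0.37, adjusted p = 0.00434), and 1.30 without mouse 4 (adjusted p = 0.0073). It was not called from the 4 mice alone (adjusted p = 0.156). Without mouse 2 the number of higher members was 11, and from the 4 mice alone it was 9.

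G protein-coupled receptors and RGS proteins held the largest fall and some of the largest rises, with 4 of 26 higher and 4 lower whichever of the 4 mice was left out. Gpr84, a receptor of medium-chain fatty acids, gave 3.38, 4.74, 4.20 and 3.87 (mean 4.05 ± 0.35, adjusted p = 2.73e-06). Gpr132, a proton- and lipid-sensing receptor, gave 2.41, 3.94, 3.57 and 3.95 (mean 3.47 ± 0.46, adjusted p = 0.000179). The other rises were Ptgir (2.14, adjusted p = 0.00213; 0.13 from the 4 mice alone) and Gpr65 (1.09, adjusted p = 0.00768). Cnr2, the cannabinoid receptor of immune cells, gave -2.04, -3.85, -4.34 and -6.49 (mean -4.18 ± 0.62, adjusted p = 0.000579), 18.1-fold lower. All mice were below 0 but over a wide range, and the mean was -3.41 without mouse 4 (adjusted p = 0.00398). The 1 array of mouse 4, at -6.49, lay near the floor of -6.64, where values were set to missing. The arrays of mouse 3 were apart, at -5.95 unswapped and -2.74 swapped, so the size of the fall is uncertain. From the 4 mice alone it lay just outside the threshold (adjusted p = 0.057). Gpr146 fell by -3.04, -2.24, -3.46 and -2.54 (mean -2.82 ± 0.29, adjusted p = 1.6e-05). Rgs2, which damps Gq signalling, fell by -1.53, -2.17, -2.30 and -3.08 (mean -2.27 ± 0.29, adjusted p = 0.000129). The fourth fall was Rgs1 (-1.66, adjusted p = 0.000673).

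Haematopoietic and macrophage transcription factors were lower in 7 of 34 and higher in 3, with a median of -0.183, or -0.344 without mouse 3. Hhex, a homeobox factor of blood progenitors, gave -2.28, -2.34, -3.29 and -3.37 (mean -2.82 ± 0.36, adjusted p = 0.000109), and its other probe gave -2.33 (adjusted p = 0.0918). Lyl1, a helix-loop-helix factor related to Tal1, gave -1.66, -1.81, -2.04 and -2.35 (mean -1.96 ± 0.29, adjusted p = 0.000485). Pparg, a lipid-sensing nuclear receptor, gave -1.10, -2.26, -1.66 and -1.78 (mean -1.70 ± 0.30, adjusted p = 0.00181). Tsc22d3, the glucocorticoid-induced gene GILZ, was even across the mice at -1.60, -2.01, -1.90 and -1.98 (mean -1.88 ± 0.41, adjusted p = 0.0101). Bhlhe41, a clock-linked repressor outside the list, fell by -2.12, -1.80, -1.86 and -1.61 (mean -1.85 ± 0.23, adjusted p = 9.2e-05). Against this trend Tfec, a MITF-family factor of macrophages, rose by 2.70, 3.22, 2.69 and 2.53 (mean 2.78 ± 0.17, adjusted p = 1.15e-07). The number of lower members was 5 without mouse 1, 2, 3 or 4.

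Genes of cell death were higher in 8 of 25 and lower in 1, against 4 and 0 from the 4 mice alone. The rises included genes that protect cells, among them Cflar, which encodes the caspase 8 inhibitor c-FLIP, at 2.24, 1.60, 1.98 and 2.13 (mean 1.99 ± 0.14, adjusted p = 4.61e-07). Bcl2a1b, of the A1 family of survival proteins, gave 1.93, 2.28, 2.62 and 2.21 (mean 2.26 ± 0.14, adjusted p = 1.15e-07). Bcl2a1a gave 2.62 ± 0.24 (adjusted p = 4.36e-06), and since the A1 genes are near-identical copies, their probes may not tell them apart. Bcl2l11, which encodes the death-promoting protein BIM, rose as well, by 3.06, 4.47 and 2.99 in the 3 mice measured (mean 3.51 ± 0.47, adjusted p = 0.000258). The lower member was Bcl2l1, a survival gene, at -1.25 (adjusted p = 0.0198), lost without mouse 2, 3 or 4 (adjusted p = 0.106, 0.0911 and 0.0762).

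Calls in the metabolic groups were small in number, but not in share against the 4.29% higher and 3.25% lower over all named genes. In the glycolysis and hypoxia list 9.52% were higher and 0 lower, and among lipid genes 8.33% were lower and 0 higher. Each of these shares above the baseline rests on 2 genes. The oxidative stress list lay above the baseline in both directions, with 1 gene lower. In the glycolysis and hypoxia list 2 of 21 genes were higher: Hk2, a hexokinase, at 1.31, 1.04, 0.95 and 1.56 (mean 1.21 ± 0.17, adjusted p = 0.000252), and the glucose carrier Slc2a1 at 0.58 (adjusted p = 0.0328), which was lost without mouse 1, 2 or 3 (adjusted p = 0.156, 0.0931 and 0.126). Txnrd1, a thioredoxin reductase, rose by 0.93, 1.45, 1.18 and 1.18 (mean 1.18 ± 0.14, adjusted p = 4.64e-05). In the oxidative stress list 4 of 20 were higher and 1 lower, and the lower member was Hmox1, which degrades haem, at -0.68 (adjusted p = 0.0342; 0.19, 0.0862 and 0.134 without mouse 2, 3 or 4). The lipid droplet gene Plin2 fell by -0.65, -0.77, -1.01 and -0.63 (adjusted p = 0.00168), and Cpt1a, of fatty acid import into mitochondria, by -0.81, -0.58, -0.82 and -0.98 (adjusted p = 0.00234). They were the 2 calls among 24 lipid genes, and neither was called from the 4 mice alone (adjusted p = 0.0676 and 0.0579).

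Among 27 lysosomal genes 0 were called in either direction by limma, while 9 had an unadjusted p under 0.05, all 9 with negative ratios. The median was -0.258, against -0.0403 over all named genes. Among 13 housekeeping genes 0 were called and 2 had an unadjusted p under 0.05, with a median of -0.0577. How many of all named genes had an unadjusted p under 0.05 was not counted, so the unadjusted counts have no baseline here. Of 33 respiratory chain genes 1 was called, Atp5o, at 1.98, 3.17, 3.35 and 2.64 (mean 2.78 ± 0.22, adjusted p = 1.23e-06). The other 32 lay between -0.38 and 1.16. One of 51 ribosomal protein genes was higher, Rps26 at 0.48 (adjusted p = 0.033), and it was lost without any 1 of the 4 mice (adjusted p = 0.0666 to 0.168). Rpl39l, a paralogue of a ribosomal protein gene that stands outside that list, gave 3.46, 4.50, 3.49 and 4.16 (mean 3.90 ± 0.41, adjusted p = 1.99e-05), all below the wild-type range of 6.15 to 7.99, with a difference of -2.80 (adjusted p = 0.0769). Cell cycle genes were higher in 3 of 45 (6.67%) and lower in 4 (8.89%), where 4.29% of all named genes were higher and 3.25% lower. The counts were 0 and 3 without mouse 4, 2 and 2 without mouse 3 and 1 and 4 without mouse 1. Cdk4 was lower, at -0.76 (adjusted p = 0.00371), as was Cdkn2d, an inhibitor of that kinase, at -0.61 (adjusted p = 0.0058), and neither was called from the 4 mice alone (adjusted p = 0.0832 and 0.124). From the 4 mice alone 0 of the 45 were called.

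Scavenger, lectin, Fc and complement receptors were higher in 2 of 30 (6.67%) and lower in 3 (10.0%), with a median of -0.106. Over all named genes 4.29% were higher and 3.25% lower. Without mouse 1, 3 or 4 the counts were 1 and 1, without mouse 2 they were 2 and 1, and from the 4 mice alone 0 were called. Some markers of other cell types also moved. Of 6 T cell markers tested 2 were lower, Cd28 at -1.14, -1.28, -0.75 and -0.90 (mean -1.02 ± 0.12, adjusted p = 7.9e-05) and Il7r at -0.62 (adjusted p = 0.0317; 0.0911 to 0.12 without any 1 mouse). Of 8 B cell markers 2 were lower, Blnk at -0.63, -1.09, -0.70 and -0.99 (mean -0.85 ± 0.13, adjusted p = 0.000487; 0.0601 from the 4 mice alone) and Cd79a at -0.72, -0.67, -0.85 and -1.96 (mean -1.05, adjusted p = 0.0195; 0.0519 without mouse 3 and 0.144 without mouse 4). The mean log2 ratio over the T cell list ran from -0.323 to 0.0358 among the mice and that of the B cell list from -0.601 to 0.0412. Of 28 tested markers of neutrophils, dendritic, erythroid, stromal and mast cells 0 were called by limma, and 2 had an unadjusted p under 0.05. That unadjusted count has no baseline over all named genes. Among 14 macrophage markers 1 was higher, the scavenger receptor gene Msr1 at 0.82, 0.80, 0.91 and 0.62 (mean 0.79 ± 0.13, adjusted p = 0.0013; 0.0552 from the 4 mice alone), and 1 was lower, the Fc receptor gene Fcgr1 at -0.47 (adjusted p = 0.0278; 0.104 to 0.119 without mouse 1, 2 or 3). The mean over the macrophage list ran from -0.162 to 0.0101. The part of other cells in any result was not tested.

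Several textbook LPS genes could not be tested because the MyD88-/- arrays held too few values. Il6 had a value on 1 of 7 arrays, 0.62, against 7 of 8 wild-type arrays with mouse values of 4.67, 2.90, 1.98 and 5.05. Il12b had 3 values, -1.31, 0.00 and 3.72, where wild-type mice gave 4.56, 3.39, 3.24 and 5.14. Csf2, the gene of GM-CSF, had 3 values, 0.64, 0.60 and 1.19, against a wild-type mean of 3.35. In all 3 genes most MyD88-/- values fell below the wild-type mice, but they came from 1 or 2 mice. Ptgs2, which encodes COX-2, gave 1.43, 2.58 and 0.83 on 3 arrays, where wild-type mice gave 5.51, 3.34, 7.77 and 7.78. Nos2, the inducible nitric oxide synthase, gave 0.17, -0.41, -0.25 and -0.34 on 4 arrays of 2 mice, near 0, against 4.95, 3.80, 1.60 and 1.44 in wild-type mice. Maff, a small MAF factor, gave 0.86, 1.85 and 3.01, against a wild-type mean of 3.82.

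**Figure D4:**
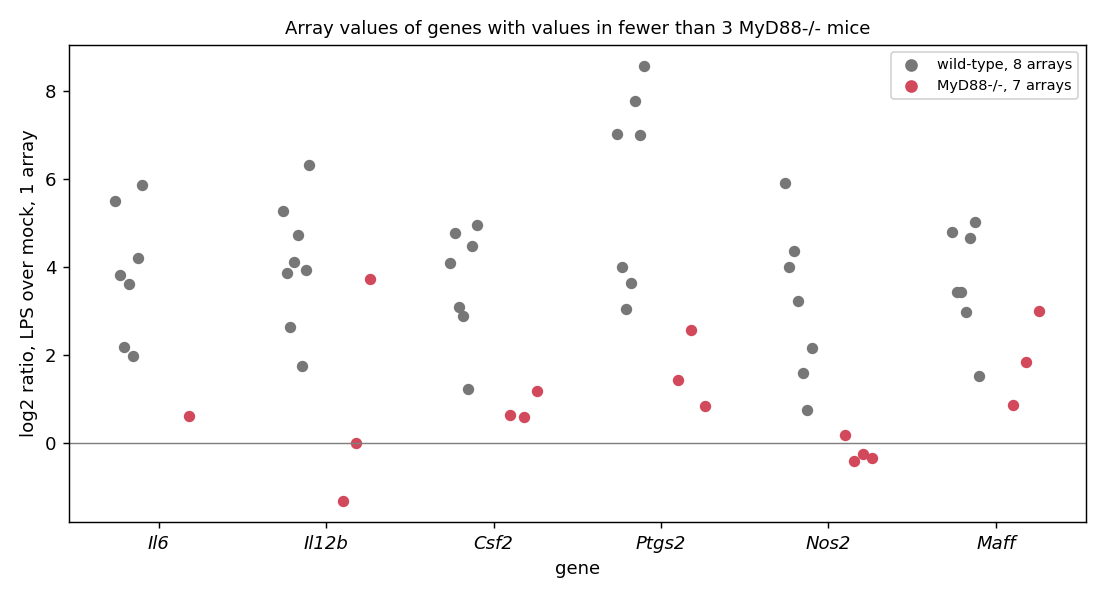
Log2 ratios, LPS over mock, on single arrays of wild-type (grey, up to 8) and MyD88-/- (red, up to 7) macrophages for 6 genes with values in fewer than 3 MyD88-/- mice; a missing point is a missing value. For Il6 1 MyD88-/- value stands beside 7 wild-type values, and for Nos2 the 4 MyD88-/- values lie between -0.41 and 0.17.

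These gaps were not general. Of 1249 probes with values in at least 3 wild-type but fewer than 3 MyD88-/- mice, 13 (1.04%) had a wild-type mean of 2 or more, against 1.62% of the 8090 probes measured in both genotypes. The reverse gap, values in 3 or more MyD88-/- but fewer than 3 wild-type mice, held 1121 probes. Why a spot has no value is not given in the sources used here, and a missing value shows neither a low nor an unchanged transcript. Isg15, Nfkbia and Cd40 had few values in both genotypes. Treml1, a receptor best known on platelets, was measured in 0 wild-type mice and fell in the MyD88-/- mice by -2.09, -1.67, -2.82 and -3.64 (mean -2.56 ± 0.42, adjusted p = 0.0101). That call was lost without mouse 3 (adjusted p = 0.0528) and with the values at the floor kept (adjusted p = 0.107).

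Against wild-type cells, 21 of 8090 probes (0.26%) differed in their response to LPS, 16 lower and 5 higher in the MyD88-/- cells. At each of these probes the mice of the genotypes did not overlap. The probes were called on the same mice, so this adds no separate support, and uncalled genes such as Id1 and Tnf did not overlap either. The share of all 8090 probes without overlap is not given here, so the lack of overlap has no baseline. Lower responses included Ccl17 (difference -3.84 ± 0.52, adjusted p = 0.00235), Cxcl2 (-2.51 ± 0.30, adjusted p = 0.00117), Ccl7 (-2.38, adjusted p = 0.00606) and Ccl2 (-2.29, adjusted p = 0.00789). All 4 are chemokines, of which Cxcl2 and Ccl2 were still called higher without MyD88. Cebpd, which fell here and rose in wild-type cells, differed by -2.47 ± 0.25 (adjusted p = 0.00033). Noct, measured by 2 probes, differed by -2.41 (adjusted p = 0.0113) and -1.55 (adjusted p = 0.0255). The former was not called without mouse 2 of the MyD88-/- mice (adjusted p = 0.0568). Prpf8, a core splicing factor, gave 0.62 without MyD88 and 2.92 with it (difference -2.29 ± 0.21, adjusted p = 0.00012). Plaur, the urokinase receptor, differed by -1.58 (adjusted p = 0.00101), Plk2 by -1.67 (adjusted p = 0.0134) and Coq10b by -1.57 (adjusted p = 0.00165). Another Coq10b probe, with values in 3 MyD88-/- mice, gave a response of -0.13 (limma, adjusted p = 0.942) and was not among the 21 differences. For Plk2 the call was lost without MyD88-/- mouse 2 or 3 (adjusted p = 0.0568 and 0.0599).

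The 5 probes with higher ratios in MyD88-/- cells all had negative means in wild-type cells. Txnip, the thioredoxin-binding regulator of glucose uptake, gave -0.93 and -0.57 by its 2 probes, against -3.74 and -4.15 in wild-type cells, differences of 2.81 ± 0.44 (adjusted p = 0.011) and 3.58 ± 0.43 (adjusted p = 0.00165). Klf10, a TGF-beta-induced zinc finger gene, gave 0.29 against -1.33 (difference 1.62, adjusted p = 0.00228). Apobec1, an RNA-editing deaminase, fell in both genotypes but less without MyD88, -1.13 against -2.22 (difference 1.08, adjusted p = 0.015), a call lost without MyD88-/- mouse 1 or 2 or wild-type mouse 1 (adjusted p = 0.0648, 0.0719 and 0.065). Sgk1, a glucocorticoid-induced kinase, gave 0.84 against -0.45 (difference 1.29, adjusted p = 0.0365), and this call was lost without any 1 of the 4 MyD88-/- mice (adjusted p = 0.0511 to 0.137), as it was without wild-type mouse 1 or 2 (adjusted p = 0.133 and 0.117). From the 8 mice of the comparison alone 4 probes were called, those of Cebpd, Prpf8, Plaur and 1 of Txnip. There the others named here missed the threshold, with adjusted p of 0.0663 for Ccl17, Cxcl2, Ccl7 and Klf10, 0.134 for Ccl2 and Apobec1, 0.0543 for Coq10b, 0.051 for Plk2 and the other Txnip probe, 0.0844 for the Noct probe of larger difference and 0.238 for Sgk1. On unswapped arrays Ccl17 (adjusted p = 0.241), Ccl2 (0.349) and Sgk1 (0.0936) were not called. That Noct probe and the Txnip probe of smaller difference were not called there either (adjusted p = 0.0724 each). On swapped arrays Cebpd and Coq10b (adjusted p = 0.0979 each), Plk2 (0.255), Apobec1 (0.535) and Sgk1 (0.753) were not called. Cxcl2 and the Txnip probe of larger difference (adjusted p = 0.0732 each) and the same Noct probe (0.0553) were also lost on swapped arrays.

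**Figure D5:**
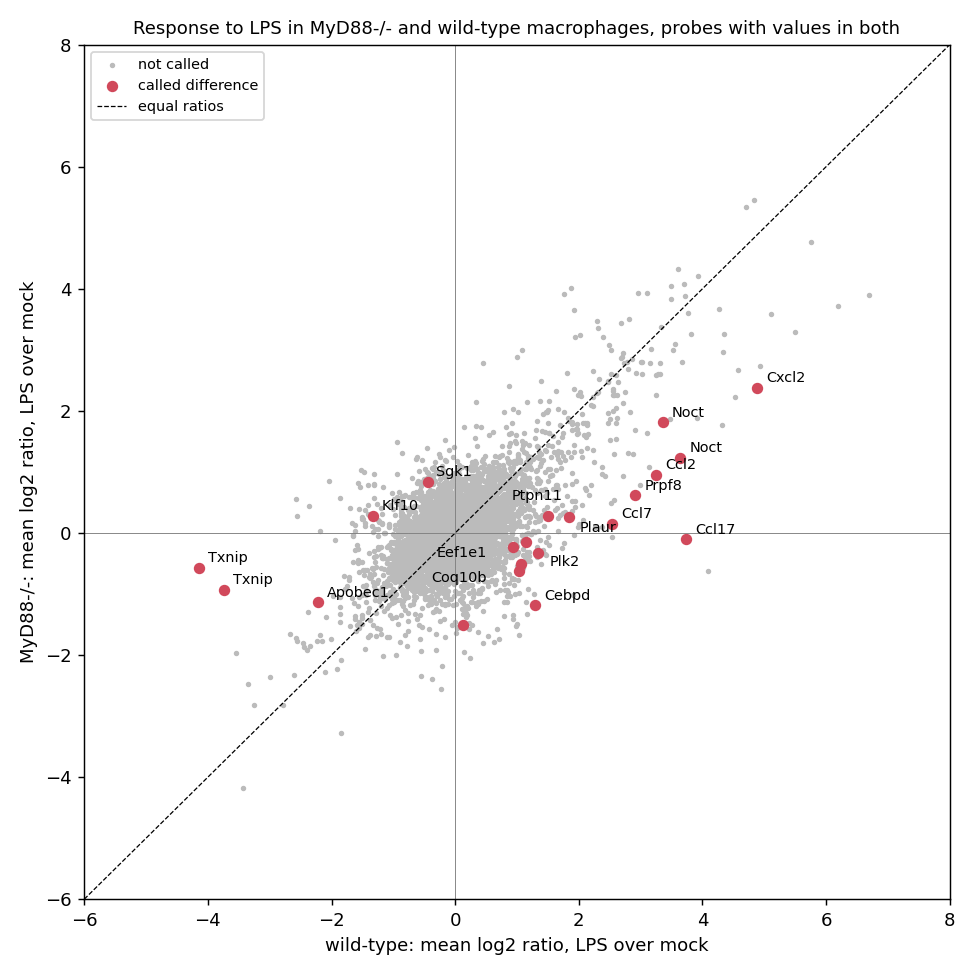
Mean log2 ratio, LPS over mock, in MyD88-/- (vertical) against wild-type (horizontal) macrophages for the 8090 probes with values in at least 3 mice of both genotypes; red points are the 21 probes whose difference was called, labelled where the probe has a gene symbol, and the dashed line marks equal ratios. Ccl17, Ccl7 and Cxcl2 lie below the line and the Txnip probes above it.

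Among the probes called in MyD88-/- cells the sign was mostly shared with wild-type cells: 618 of the 639 also measured there had the same sign. The same was not counted over all probes measured in both genotypes, so this count has no baseline here. Between live E. coli and LPS in the MyD88-/- macrophages no probe was called. Of 8086 probes 0 (0.0%) differed by limma, 207 had an unadjusted p under 0.05, and the smallest adjusted p was 1.0. Side by side, E. coli and LPS gave 5.32 and 5.46 for Acod1, 5.81 and 5.35 for Cxcl10, 4.07 and 4.02 for Ifit1, 3.93 and 3.59 for Tnf, and -3.08 and -3.28 for Id1. Cnr2 gave -2.21 with E. coli and -4.18 with LPS. An adjusted p that misses the threshold does not show that the stimuli act alike, and the median SE of a response to LPS here was 0.25.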

How the data were processed

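Spotted 2-colour arrays were scanned and quantified with GenePix and analysed in BASE and GeneSpring, per the labels' protocols. Each deposited value is a log2 ratio of the channels as normalized by the authors, and the background correction, normalization and spot filter are not given in the sources used here. Values at the floor of log2(0.01), -6.64, were set to missing and the dye orientations of a mouse averaged, so mouse 4 of the MyD88-/- LPS group rests on 1 array. A linear model with 1 coefficient for each of the 4 groups was fitted to 16 mouse-level ratios with limma 3.58.1 (lmFit, eBayes) in R 4.3.3, which shares 1 spread per probe. Probes with values in at least 3 of the 4 mice of each group compared were tested, 2-sided, and p adjusted by Benjamini and Hochberg over all of them, with a call under 0.05. The number of arrays limits the precision. Mice of a group are separate by label. The script was tested on simulated data.

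Probes were named from the platform table: 11480 of 13872 had 1 symbol, 50 several and 2342 none, and 11437 matched a current Entrez gene. Where several probes share a gene, the one with values on most of the 7 arrays stands for it. Members and lists were chosen with earlier results of these data known. The naming rule takes the 20 largest rises and 15 largest falls of 1 sign in 4 mice, the 10 rises and 8 falls largest among probes not measured in every group, the 4 members of smallest p in each list, 47 fixed genes and the 10 largest differences each way. Iigp1, Cxcl14, Fas, Il4ra, Ptgir, Gpr65, Rgs1, Bcl2l1, Nfkbie, Maff and Csf2 were named outside it after their values were seen. Alternatives were a fit that takes the mouse number as a block, other filters, scalings, dye orientations, and fits without each mouse in turn.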

Additional observations from a re-analysis of the deposited data

Results flagged for a closer look

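Of 144 named probes with values in all 4 MyD88-/- LPS mice, 10 had 1 mouse far from the other 3 by Dixon's criterion, which chance alone meets in about 1 of 20. Mouse 4 was the distant one in 6 of them: Il1rn at 0.87 (others 1.92 to 1.99), the neutrophil granule gene Ngp at 3.46 (others 0.00 to 0.49), Zbtb46 at -6.16 (others -0.01 to 0.77), Cd79a at -1.96, Rpl24 at -0.98 and Slc7a11 at 3.88. The distant mouse was mouse 2 for Polr2a at -1.05, Il21r at -1.29 and Neu1 at -0.71, and mouse 3 for Ifnb1 at 1.49. What sets these values apart was not tested.

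The response of MyD88-/- cells minus that of wild-type cells, tested by limma within 1 fit, passed the threshold for these named genes: Ccl17 -3.84, Cxcl2 -2.51, Cebpd -2.47, Noct -2.41, Ccl7 -2.38, Ccl2 -2.29, Prpf8 -2.29, Plk2 -1.67, Plaur -1.58, Coq10b -1.57, Apobec1 1.08, Sgk1 1.29, Klf10 1.62 and Txnip 2.81 and 3.58 by its 2 probes.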

How the results depend on the processing

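The count of changed probes, 646, was 297 (197 higher, 100 lower) from swapped arrays only, which leave 3 mice, 255 (172 and 83) from the 4 mice alone, and 342 (231 and 111) with a 2-fold minimum. Leaving out any 1 of the 16 mouse-level ratios gave 428 to 686 calls, 264 to 379 higher and 164 to 309 lower, and the lowest number was without MyD88-/- LPS mouse 4. The 21 genotype differences were 12 (3 higher, 9 lower) from unswapped arrays, 11 (2 and 9) from swapped arrays, 4 (1 and 3) from the 8 mice alone and 42 (9 and 33) from single arrays with a dye term. Leaving out 1 mouse gave 13 to 25 differences, 3 to 7 higher and 10 to 20 lower. The cause was not tested. E. coli minus LPS gave 0 calls in all settings run, the mouse number as a replicate block included (0 calls, 354 probes at an unadjusted p under 0.05, smallest adjusted p 0.521). Deviations of same-numbered mice correlated with r of 0.0641, -0.0542, 0.0493 and 0.125, and 2 of 4 matched their own number best. Among 175 named probes 0 went from a call in 1 direction to a call in the other, and 63 of 115 calls passed in all settings that gave a value. Means near 0 that were not called, such as that of Ifnb1, could change sign and are not counted in this. Missing values leave genes such as Il6 untested.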
